A study of Mus musculus with 8 samples.

Results

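Palatal shelves of mouse embryos at embryonic day 14.5 were profiled on 8 expression arrays, 4 from R26Pax3/Pax3 embryos and 4 from wild type littermates on a C57BL/6 X SV129 background. The comparison described here cuts across genotype. It sets the first 4 deposited arrays (R26Pax3/Pax3 1 and 3, wild type 6 and 8) against the last 4 (R26Pax3/Pax3 4 and 7, wild type 2 and 11), so that all 8 of the 8 arrays enter and each side holds 2 arrays of each genotype. R26Pax3 is an allele in which Pax3, a paired-box transcription factor of neural crest and muscle progenitors, is placed at the Rosa26 locus; the labels name no Cre driver or promoter for it. The labels do not say whether an array holds 1 embryo or a pool, and they name no litter, dissection day, hybridization batch or scan date, so the column groups, as the first and the last 4 are called below, rest on the order of deposition alone. P-values cover only the variation among these 8 arrays, which may be technical. The column groups were proposed after the first principal component of these data had been seen to separate them, so the p-values below describe these arrays and are not independent support.

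At this stage of mouse development the palatal shelves elevate above the tongue and meet in the midline. A shelf is mostly mesenchyme derived from neural crest, covered by oral and nasal epithelium, and it contains the ossification centres of the palatine processes, vessels and nerve fibres. Cartilage of the nasal septum and cranial base, skeletal muscle of the tongue and soft palate, tooth germs and nerve ganglia lie beside it and can enter a dissected piece. In RNA from whole tissue, fewer cells of a type and less RNA per cell cannot be told apart.

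The targeted genes followed the labels in both column groups. Pax3 signal (probe set 1420389_at) was 532, 559, 664 and 722 in the mutant arrays and 142 to 176 in the wild type arrays, and the transcript of the Rosa26 locus, Gt(ROSA)26Sor, was 12.8 to 30.3 in the mutant arrays and 271 to 390 in the wild type arrays. Genotype, fitted with the column group as a covariate, separated 4 probe sets (0.0148% of those tested; limma, adjusted p under 0.05), which were the same 4 as without that covariate: 2 of Pax3, 1 of Gt(ROSA)26Sor and 1 of Tia1. Neither Pax3 (log2 difference, first minus last, of -0.23 ± 0.09 SE, adjusted p = 0.515, limma) nor Gt(ROSA)26Sor (-0.19 ± 0.16, adjusted p = 0.79) passed the test between column groups. Signal here is the MAS5 signal of a probe set on a linear scale; array medians lay between 43.5 and 44.9. There were no detection calls, so a signal below the array median cannot be told from background and no fold is given for it; differences are on the log2(signal + 16) scale, which compresses dim probe sets.

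Between the column groups, 40 of 27021 tested probe sets differed (0.148%; limma with genotype as covariate, Benjamini-Hochberg adjusted p under 0.05). Of these, 33 (0.122%) were higher in the last 4 arrays and 7 (0.0259%) in the first 4. Named by a single symbol were 26 probe sets of 22 genes, while 6 carried several symbols and 8 none. Only 1 of the 40, a Glo1 probe set, had column groups that overlapped. The count fell to 19 without R26Pax3/Pax3 4, to 23 without R26Pax3/Pax3 1 and to 25 without wild type 11. Before adjustment 2385 probe sets had p under 0.05 where 1351 would be expected with no difference, and 1390 (5.14%) had column groups that did not overlap, against 2.86% of the possible orders of 4 and 4 values. Since the column groups were proposed from these same data, both excesses are descriptions and do not measure a departure from chance. The genotype by column group interaction, fitted on the same arrays, had 3015 probe sets with unadjusted p under 0.05 (limma).

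The largest differences were those of genes with low signal in the first 4 arrays and signal well above the array median in the last 4. AI506816 read 15.6 and 19 in R26Pax3/Pax3 1 and 3 and 5.5 and 7.2 in wild type 6 and 8. In the last 4 arrays it read 490 and 287 in R26Pax3/Pax3 4 and 7 and 324 and 308 in wild type 2 and 11. No array of the first 4 came near any of the last 4, and the log2 difference was -3.73 ± 0.16 (adjusted p = 2.9e-06, limma). Rpgrip1, which encodes a protein of the photoreceptor connecting cilium, read 54.3, 174.6, 50.6 and 53.1 in the first 4 arrays and 1017, 1016, 996 and 917 in the last 4, a difference of -3.50 ± 0.25 (adjusted p = 0.000156, limma). R26Pax3/Pax3 3 was the highest of the first 4 and still far below the last 4; 1 of the gene's 4 probe sets passed the filter on low signal. Ang, which encodes the secreted ribonuclease angiogenin, read 1.9 to 4.1 in the first 4 arrays and 101.5 to 141.3 in the last 4 (-2.82 ± 0.14, adjusted p = 6.8e-06, limma).

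Ang lies next to Rnase4, another secreted ribonuclease of the same family, and the RefSeq promoter table (GRCm38.p6) gives both genes the same start, with a second start for Rnase4 alone. Rnase4 read 845, 677, 781 and 771 in the first 4 arrays and 726, 858, 809 and 841 in the last 4, so its column groups overlapped and its difference was -0.07 ± 0.09 (adjusted p = 0.869, limma). The second tested Ang probe set read 1.9 to 27.7 in the first 4 arrays and 55.8 to 71.3 in the last 4 (-1.46 ± 0.25, adjusted p = 0.0637, limma). The gene's other probe set, too dim to be tested, read 0.9 to 10.9 and 5.4 to 24.2, with overlap. The first promoter window is shown because it is listed both for Ang and for Rnase4. The 2 tested Ang probe sets (1438936_s_at and 1438937_x_at) separated the column groups, and the Rnase4 probe set did not. Names ending in s_at mark probes shared by several transcripts, and in x_at probes that can also match other transcripts. Windows are also shown for the second Rnase4 start and for Rpgrip1 and Ngdn, on the same chromosome. Between these and Ang lie 27 and 74 protein-coding genes. Rpgrip1 separated the column groups on its 1 tested probe set, and Ngdn on 1 of its 2 (1438318_x_at). Each window runs from 250 bases before to 50 after the start. Capitals mark exact matches, on either strand, of the TATA box letters TATAAA, of the GC box, whose letters are GGGCGG, and of the CCAAT box.
Ang and Rnase4, shared start, chr14:51090827-51091126, + strand: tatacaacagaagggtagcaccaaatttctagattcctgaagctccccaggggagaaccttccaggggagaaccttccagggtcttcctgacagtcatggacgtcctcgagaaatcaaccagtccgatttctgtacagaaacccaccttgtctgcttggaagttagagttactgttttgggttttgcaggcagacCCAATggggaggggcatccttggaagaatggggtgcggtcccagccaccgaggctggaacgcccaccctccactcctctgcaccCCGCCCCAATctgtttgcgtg
Rnase4, second start, chr14:51095750-51096049, + strand: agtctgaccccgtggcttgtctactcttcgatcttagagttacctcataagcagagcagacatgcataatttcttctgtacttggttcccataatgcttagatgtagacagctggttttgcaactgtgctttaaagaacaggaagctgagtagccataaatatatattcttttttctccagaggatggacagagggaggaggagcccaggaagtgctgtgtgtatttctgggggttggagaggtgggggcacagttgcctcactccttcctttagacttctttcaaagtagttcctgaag
Rpgrip1, chr14:52110653-52110952, + strand: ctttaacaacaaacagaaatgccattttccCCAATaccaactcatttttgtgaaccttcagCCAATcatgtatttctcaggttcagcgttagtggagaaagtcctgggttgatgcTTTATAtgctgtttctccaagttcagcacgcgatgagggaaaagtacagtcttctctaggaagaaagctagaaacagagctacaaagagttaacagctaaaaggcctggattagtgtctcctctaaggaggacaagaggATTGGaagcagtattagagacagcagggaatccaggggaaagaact
Ngdn, chr14:55015204-55015503, + strand: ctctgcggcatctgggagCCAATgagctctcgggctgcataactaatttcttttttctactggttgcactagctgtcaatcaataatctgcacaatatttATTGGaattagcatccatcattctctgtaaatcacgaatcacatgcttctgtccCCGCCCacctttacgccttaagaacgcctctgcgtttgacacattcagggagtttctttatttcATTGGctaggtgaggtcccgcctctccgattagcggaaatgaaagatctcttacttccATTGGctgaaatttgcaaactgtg
The shared window holds 1 GC box and 2 CCAAT box matches, of which 1 CCAAT box overlaps the GC box by a base, and the second Rnase4 window holds none of the 3 motifs. The Rpgrip1 window holds 1 TATA box and 3 CCAAT box matches, and the Ngdn window 1 GC box and 4 CCAAT box matches. Among all 32851 promoters of the table, 13.6% hold the TATA box, 35.7% the GC box and 37.4% the CCAAT box. No motif occurred in all 4 windows, and the matches are letters in these windows, not sites.

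A pseudogene and noncoding loci were also among the called. Pisd-ps3 is a pseudogene of Pisd, the mitochondrial phosphatidylserine decarboxylase that makes phosphatidylethanolamine. All 5 of its probe sets differed between column groups. The probe set 1434975_x_at read 247, 395, 445 and 594 in the first 4 arrays and 1183, 1395, 1265 and 1173 in the last 4 (-1.60 ± 0.18, adjusted p = 0.00363, limma), and 1453145_at read 42.0 to 114.6 against 617 to 1018. Another 4 of the called probe sets list Pisd-ps3 together with other members of that family, so 9 of the 40 calls may share one source and near-identical copies cannot be separated; without them 31 probe sets were called, 24 of them higher in the last 4. The probe set 1460585_x_at, annotated to Pisd alone, read 395 to 491 in the first 4 arrays and 449 to 644 in the last 4, with overlapping column groups (-0.27 ± 0.11, adjusted p = 0.533). A probe set annotated to the microRNA locus Mir1931, which does not measure the mature microRNA, read 3.2, 0.7, 38.3 and 43.1 in the first 4 arrays and 91.7 to 132.9 in the last 4 (-1.99 ± 0.29, adjusted p = 0.0231). The long noncoding RNA Tug1 read 540 to 692 in the first 4 arrays and 835 to 1032 in the last 4 (-0.64 ± 0.08, adjusted p = 0.0129, limma).

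Zinc-finger genes were also among those higher in the last 4 arrays. Zfp945 read 29.0, 39.2, 37.8 and 30.1 in the first 4 arrays and 182, 237, 201 and 188 in the last 4 (-2.12 ± 0.13, adjusted p = 3.6e-05, limma). Zkscan3, a zinc-finger gene with KRAB and SCAN domains, read 170 to 244 in the first 4 arrays and 289 to 531 in the last 4 (-1.03 ± 0.17, adjusted p = 0.0494). Zfp52 was dim, at 30.1 to 37.9 in the first 4 arrays and 71.1 to 99.9 in the last 4 (-0.99 ± 0.14, adjusted p = 0.0196); it was named after its values were seen. Further tested probe sets of Zfp945 and Zkscan3 did not pass, and Zfp52 had no other tested probe set. Zfp945 read 191 to 213 and 139 to 180 on its brighter probe set, in the opposite order (0.31 ± 0.10, adjusted p = 0.406). The brightest Zkscan3 probe set read 394 to 450 and 467 to 499, in the same order and without overlap (-0.21 ± 0.08, adjusted p = 0.483).

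Prrc2c, which encodes a proline-rich RNA-associated protein, read 347, 269, 307 and 252 in the first 4 arrays and 633, 661, 725 and 669 in the last 4 (-1.16 ± 0.11, adjusted p = 0.000858, limma). Ngdn, the nucleolar protein neuroguidin, read 273 to 363 and 613 to 761 (-0.97 ± 0.11, adjusted p = 0.00414). Dst, the cytoskeletal linker dystonin, read 99.1 to 144.1 and 210 to 313 (-0.97 ± 0.13, adjusted p = 0.0139). On these called probe sets the groups of 4 were apart in all 3 genes, which was a condition for naming them. The 3 other tested Dst probe sets overlapped, with differences of -0.24, 0.07 and 0.06. The brightest of them read 241 to 299 and 237 to 298 (adjusted p = 0.922, limma). Mettl23, a methyltransferase-like gene, differed by -0.83 ± 0.13 and Ggps1, the geranylgeranyl diphosphate synthase, by -0.69 ± 0.10. A pair of mitochondrial genes, Ghitm of the inner membrane and Mrpl17 of the large ribosomal subunit, were bright in every array: Ghitm read 612 to 835 and 1092 to 1153 (-0.63 ± 0.10), and Mrpl17 read 655 to 728 and 878 to 1076 (-0.50 ± 0.08). All 8 called probe sets without a symbol were also higher in the last 4, with differences from -0.70 to -1.48.

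In the first 4 arrays fewer genes were higher and the differences were smaller. A330076H08Rik, a transcript without a described product, read 259, 244, 281 and 191 in the first 4 arrays and 60.1, 90.1, 20.9 and 81.3 in the last 4 (1.81 ± 0.26, adjusted p = 0.0238, limma). Its other tested probe set read 40.3 to 65.9 and 28.7 to 77.3, with overlap (0.20 ± 0.21, adjusted p = 0.844). Rrp8, a nucleolar methyltransferase of ribosomal RNA, read 176 to 243 and 77.8 to 116.2 (0.91 ± 0.12, adjusted p = 0.0166). Pik3r4, the regulatory subunit of the class III phosphatidylinositol 3-kinase, read 211 to 245 and 100.7 to 149.8 (0.85 ± 0.12, adjusted p = 0.0196). On the called probe sets, none of these 3 had overlapping column groups, which was a condition for naming them. Abhd14b, an alpha/beta hydrolase, read 109.9 to 133.9 and 57.8 to 67.5 (0.78 ± 0.11, adjusted p = 0.0196). Vcan, the chondroitin sulphate proteoglycan versican of embryonic mesenchyme, read 823 to 1008 and 595 to 735 on 1 of its 5 tested probe sets (0.49 ± 0.08, adjusted p = 0.0469), and its brightest probe set read 2412 to 2854 and 2142 to 2543 (adjusted p = 0.481). Glo1, the enzyme that clears methylglyoxal, was named after its values were seen: the called probe set read 762 to 1106 and 398 to 778, with wild type 11 inside the range of the first 4 (0.70 ± 0.10, adjusted p = 0.0183). Its other 3 tested probe sets differed in the same direction, by 0.42 to 0.95.

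Next by p-value in that direction, but not passing, were Klf7, Sbf2, Adat2, Zbtb44, Lancl2, Tmem41b and Supt16, with adjusted p from 0.0659 to 0.0776 (limma). Klf7, a zinc-finger transcription factor, read 161 to 214 in the first 4 arrays and 84.7 to 120.8 in the last 4. Adat2, a transfer RNA adenosine deaminase, read 229 to 349 and 90.3 to 220.3. Supt16, a subunit of the FACT histone chaperone, read 256 to 297 and 144 to 202. Other probe sets of these genes often did not follow. The brightest Klf7 probe set read 218 to 277 and 212 to 269 (0.09, adjusted p = 0.853, limma). A brighter Zbtb44 probe set went the other way (-0.52), and the brighter Supt16 one the same way (0.41). The brightest Tmem41b and Sbf2 probe sets differed by 0.08 and 0.09, and the dimmer ones of Lancl2 by 0.01 and 0.06.

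**Figure D1:**
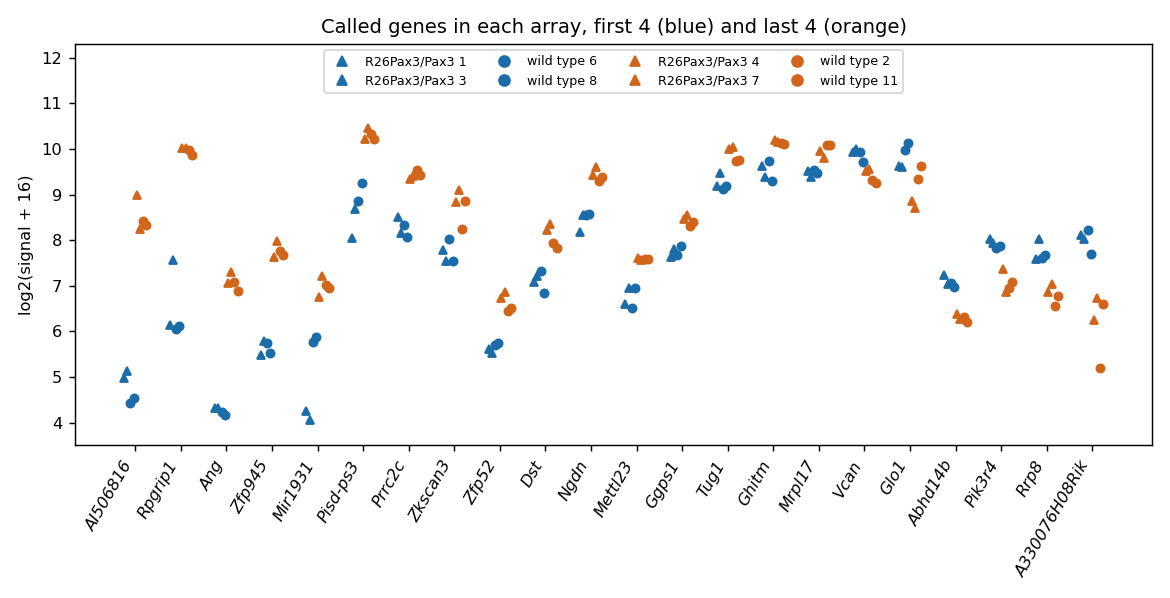
Log2(signal + 16) of the 22 called genes in each of the 8 arrays, 1 called probe set per gene, ordered by the difference between column groups; blue marks the first 4 arrays, orange the last 4, triangles R26Pax3/Pax3 and circles wild type. Colours separate for every gene except Glo1, where wild type 11 reached the level of R26Pax3/Pax3 1 and 3.

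Not every probe set of a called gene was called. Of the 22 genes, 15 had further tested probe sets and 14 had at least 1 that was not called; in 8 an uncalled probe set was brighter than the called one. In 10 of the 14, all uncalled probe sets had the same sign as the called one, as in Mettl23 (-0.54), Mrpl17 (-0.43) and both of Tug1 (-0.38 and -0.30). The other 4 had at least 1 of the opposite sign. Prrc2c on its brightest probe set read 1490 to 1733 in the first 4 arrays and 1440 to 1552 in the last 4, so the column groups overlapped (adjusted p = 0.751). The other Ngdn probe set read 227 to 282 and 254 to 303 (-0.11 ± 0.10), with overlapping ranges. Of the 40 called probe sets, 6 have names ending in x_at, the suffix for probes that can also match other transcripts, and 3 names ending in s_at, for probes shared by several transcripts.

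Several called genes were neighbours on their chromosome. Of the 17 called genes that could be placed in the RefSeq gene order, 11 (64.7%) had another called gene within 100 protein-coding genes, a distance chosen after the data were seen, against 9.61% of the other placed genes. On chromosome 14, Ang, Rpgrip1 and Ngdn were called; 27 protein-coding genes separate Ang from Rpgrip1, and Supt16, which did not pass, directly follows Rpgrip1. On chromosome 7, Rrp8 and Mrpl17 are 4 genes apart and moved in opposite directions, and Tmem41b and Sbf2, neither of which passed, are 4 genes apart further along. Zfp52 and Zfp945 on chromosome 17 are separated by 18 genes and Pik3r4 and Abhd14b on chromosome 9 by 14. The stretch from Ang to Ngdn held 36 tested genes, of which 3 were called and 12 (33.3%) had a probe set whose column groups did not overlap. The stretch from Rrp8 to Sbf2 held 26, with 2 called and 9 (34.6%) not overlapping, and that from Zfp52 to Zfp945 held 14, with 2 called and 6 (42.9%). Over all placed genes 7.36% did not overlap, each gene taken at its probe set of smallest p. Since the ends of these stretches were set by genes that separate the column groups, the shares are descriptions. Leaving out chromosome Y, which had 3 tested genes, whole chromosomes ranged from 3.42% of genes not overlapping on chromosome 15 to 12.4% on chromosome 14.

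**Figure D2:**
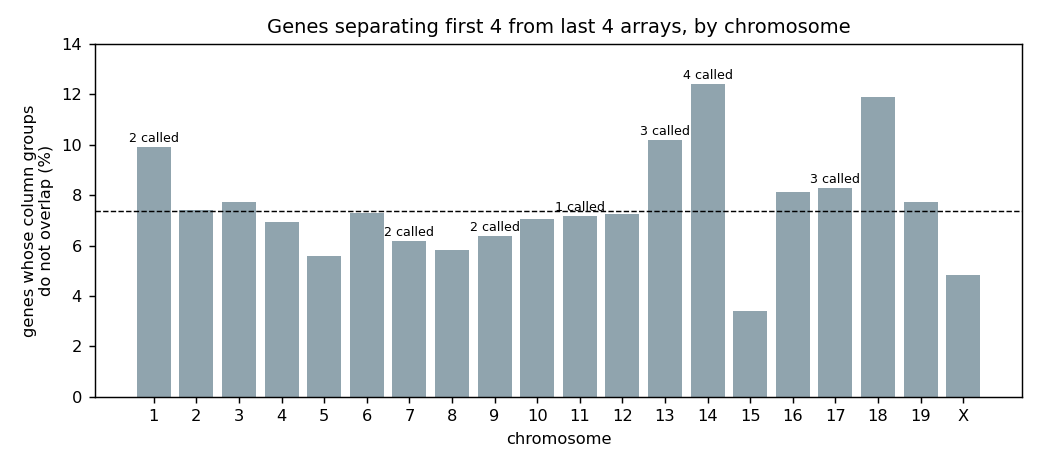
Percentage of tested protein-coding genes on each chromosome whose first 4 and last 4 arrays did not overlap, each gene at its probe set of smallest p, with the number of called genes above the bars; the dashed line is the value over all placed genes, 7.36%. Chromosome 14 stands highest, at 12.4% with 4 called genes. Chromosome Y, with 3 tested genes, is not shown.

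Over all probe sets, the difference between column groups was little shared by the genotypes. The difference R26Pax3/Pax3 1 and 3 minus 4 and 7 and the difference wild type 6 and 8 minus 2 and 11 use separate arrays. Over the 27021 tested probe sets, which are not independent replicates and share array depth within each genotype, Pearson's r between them was 0.104 and Spearman's rho -0.000944. The column group accounted for a median of 10.4% of a probe set's variance, its interaction with genotype for 11.4% and genotype for 7.28%. The mean shares were 17.5%, 18.6% and 13.6%, where 1 of 7 degrees of freedom would take a mean of 14.3% with no effect. In the interaction fit, 6 probe sets differed (0.0222%; limma), and 3015 had unadjusted p under 0.05.

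Cap1, a cyclase-associated regulator of actin, was low in R26Pax3/Pax3 4 and 7 alone. The brighter probe set read 557 and 405 in R26Pax3/Pax3 1 and 3, 33.5 and 43.9 in 4 and 7, and 429 to 497 in the 4 wild type arrays. The second one read 369 and 342, then 26.9 and 27.7, and 353 to 387 in wild type. Both gave an interaction of 3.09 and 3.08 on the log2 scale (adjusted p = 0.00122 and 0.000218, limma). Thg1l, a transfer RNA guanylyltransferase, was low on 1 probe set in the wild type arrays of the last 4: 22.5 and 15.1 in wild type 2 and 11 against 143 and 172 in wild type 6 and 8, with 69.6 to 164.6 in the mutant arrays (interaction -3.30 ± 0.25, adjusted p = 0.00122). Its other tested probe set read 24.7 and 40.2 in wild type 6 and 8 and 39.3 and 64.4 in 2 and 11, and its interaction did not pass (0.21, adjusted p = 0.873). Cnn2, an actin-binding calponin, read 2069 and 2271 in R26Pax3/Pax3 1 and 3 and 1625 and 1663 in 4 and 7, but 1520 and 1644 in wild type 6 and 8 and 2456 and 2647 in 2 and 11 (interaction 1.08 ± 0.13, adjusted p = 0.0384). The remaining 2 probe sets had no symbol.

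**Figure D3:**
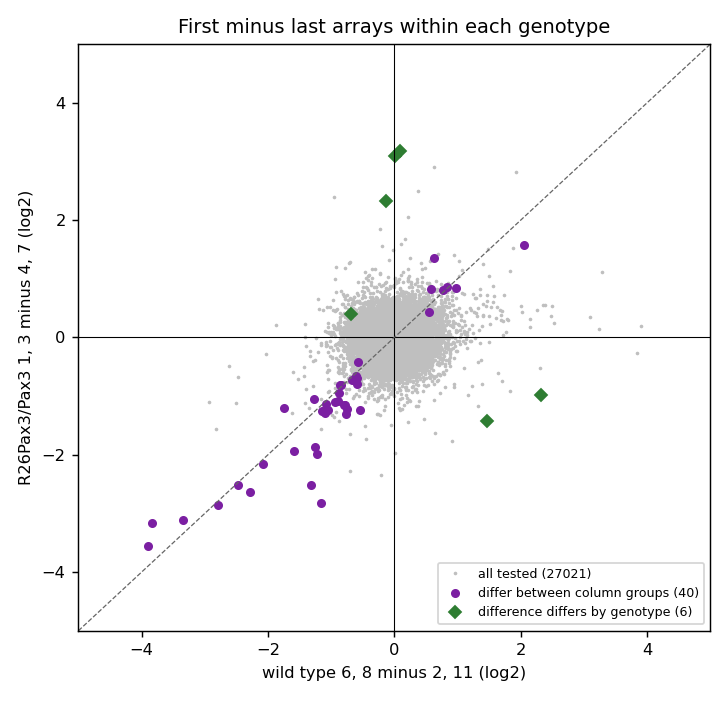
Difference between first and last arrays on the log2(signal + 16) scale, wild type on the horizontal axis and R26Pax3/Pax3 on the vertical axis, for all 27021 tested probe sets in grey, the 40 called between column groups in purple and the 6 with a genotype by column group interaction in green; the dashed line marks equal differences. The purple points lie along the dashed line, but they were called by a fit without the interaction, which favours probe sets with equal differences in both genotypes. Their position is therefore no separate evidence that the genotypes share the difference. The grey cloud shows little slope (r = 0.104).

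The tissue content of the shelves was examined with 44 lists of cell type and pathway genes, 1 probe set per gene. On its brightest probe set, no member of any list was called between column groups, where 0.113% of 12339 genes were called on the same basis. The called probe sets of Vcan and Tug1, which are list members, were not their brightest. Over those genes the median difference was 0.02, 54.6% were higher in the first 4 arrays and 7.89% had unadjusted p under 0.05. The lists are therefore described by their counts and medians.

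Neuronal genes showed the largest median difference of the lists with 5 or more tested genes. All 17 tested were higher in the first 4 arrays, with a median of 0.99, and 12 had unadjusted p under 0.05, but none passed adjustment (smallest adjusted p = 0.221, limma). Stmn2, a microtubule regulator of growing axons, read 395, 456, 575 and 259 in the first 4 arrays, 438 and 186 in R26Pax3/Pax3 4 and 7, and 60.8 and 62.4 in wild type 2 and 11. Prph, the peripheral neurofilament protein peripherin, read 125 to 320 in the first 4 arrays, 234 and 104 in R26Pax3/Pax3 4 and 7, and 23.3 and 22.0 in wild type 2 and 11. The low values thus belonged to a pair of wild type arrays, and R26Pax3/Pax3 4 was at the level of the first 4. Rtn1, a reticulon of neuronal endoplasmic reticulum, differed by 1.45 ± 0.35 (adjusted p = 0.221) and Elavl3, a neuronal RNA-binding protein, by 0.78 ± 0.21 (adjusted p = 0.282). Of the 17 genes, 14 were lower in both wild type 2 and 11 than in any other array. The median difference was 1.35 within wild type and 0.35 within the mutant. Vip, a neuropeptide, had the same order, at 206 to 487 in the first 4 arrays, 346 and 127 in R26Pax3/Pax3 4 and 7, and 7.8 and 5.1 in wild type 2 and 11 (adjusted p = 0.353); it was named after its values were seen. Glial and Schwann cell genes differed less, with 5 of 6 higher in the first 4 and a median of 0.14.

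Cartilage genes were mostly higher in the first 4 arrays. Of 16 tested, 14 were higher in the first 4 arrays, with a median of 0.26 with both genotypes, 0.27 within the mutant and 0.49 within wild type; 5 had unadjusted p under 0.05 and none was called. Col2a1, the main collagen of cartilage, read 343, 697, 916 and 609 in the first 4 arrays and 279, 212, 468 and 465 in the last 4 (0.81 ± 0.20, adjusted p = 0.235, limma). Matn4, a cartilage matrilin, read 154 to 298 and 72.0 to 140.1 (0.75 ± 0.21, adjusted p = 0.283), and these column groups did not overlap. Matn1 read 43.7 in R26Pax3/Pax3 3, 109.1 in wild type 6 and 28.5 in wild type 8, and between 5.7 and 7.4 in the other arrays. Wild type 6 was above every other array in 11 of the 16 genes. On the log2(signal + 16) scale, the list's mean reached 7.87 in wild type 6 and 7.51 in R26Pax3/Pax3 3, against 6.83 to 7.13 for the other 6 arrays. Without wild type 6 the list's median was 0.12, and without R26Pax3/Pax3 1 it was 0.51.

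Bone genes leaned the other way. Of 13 osteoblast and bone matrix genes, 9 were higher in the last 4 arrays, with a median of -0.13, and none was called. Within the mutant 6 of the 13 were higher in the first arrays (median -0.09), and within wild type 2 were (median -0.30). Omd, the bone proteoglycan osteomodulin, read 301, 236, 367 and 432 in the first 4 arrays and 343, 363, 491 and 535 in the last 4 (-0.37 ± 0.10, adjusted p = 0.277). Phex, an endopeptidase of osteoblasts and osteocytes, read 156 to 309 and 192 to 429, and Ibsp, bone sialoprotein, read 4768 to 5289 and 5226 to 6796. In all 3 genes wild type 11 was the highest array and the column groups overlapped. Of the 13 genes, 6 were higher in both wild type 2 and 11 than in any other array; without wild type 11 the median was -0.004. All 6 tested osteoclast genes were higher in the last 4, with a median of -0.26 (-0.16 without R26Pax3/Pax3 1) and a smallest adjusted p of 0.618. Acp5, the tartrate-resistant acid phosphatase of osteoclasts, read 58.4 to 125.6 and 78.1 to 134.1.

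Of 7 red blood cell genes tested, 6 were higher in the first 4 arrays, with a median of 0.26 that was 0.12 without wild type 8. In 3 of the 7, wild type 2 and 11 were below every other array. Alas2, the erythroid enzyme of haem synthesis, read 158 to 221 in the first 4 arrays, 156 and 193 in R26Pax3/Pax3 4 and 7, and 121 and 87.3 in wild type 2 and 11 (0.37 ± 0.15, adjusted p = 0.489). The list's mean log2(signal + 16) was 7.18 in wild type 2 and 7.30 in wild type 11 and lay between 7.62 and 7.74 in the other 6 arrays.

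Skeletal muscle genes varied more between arrays than any of these lists but not along the column groups. Of 30 tested structural genes, 7 were higher in the first 4, and the median was -0.07. Within the mutant the median difference was 0.52 and 29 of 30 were higher in the first arrays; within wild type it was -0.72 and none of 30 was. The list's mean was 6.07 in R26Pax3/Pax3 7 and between 7.05 and 8.19 in the other arrays, and 25 of the 30 genes were lowest there. Des, the muscle intermediate filament desmin, read 44.5, 78.3, 27.0 and 58.8 in the first 4 arrays and 66.9, 33.1, 99.0 and 103.7 in the last 4. Without R26Pax3/Pax3 7 the list's median was -0.65 and without R26Pax3/Pax3 4 it was 0.24.

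**Figure D4:**
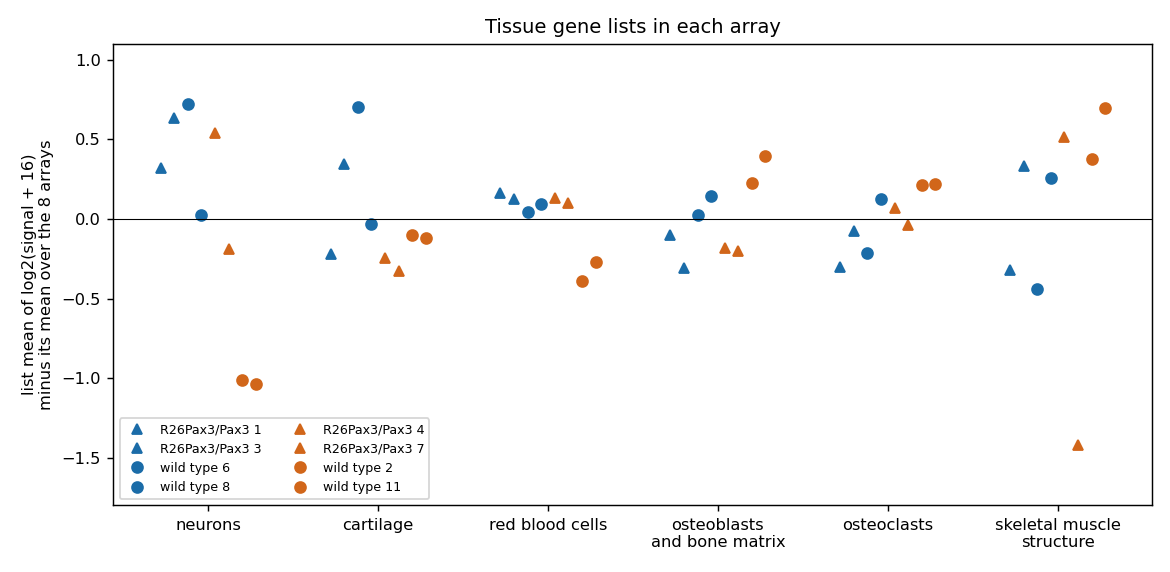
Mean log2(signal + 16) over the tested genes of 6 tissue lists in each array, minus the list's mean over the 8 arrays; blue marks the first 4 arrays, orange the last 4, triangles R26Pax3/Pax3 and circles wild type. Neuronal genes are low in wild type 2 and 11, cartilage genes high in wild type 6, and skeletal muscle genes low in R26Pax3/Pax3 7.

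Of 18 palate mesenchyme genes, 6 were higher in the first 4 arrays and the median was -0.04; Osr1, a transcription factor of palate mesenchyme, read 289 to 329 in the first 4 and 350 to 398 in the last 4, without overlap (-0.27 ± 0.08, adjusted p = 0.377). Tbx3, a T-box factor, went the other way, at 227 to 324 and 147 to 270, with overlap (0.46 ± 0.16, adjusted p = 0.442). Gsc, the homeobox gene goosecoid, read 50.7 to 75.9 and 75.5 to 123.6. Fibroblast matrix genes had a median of 0.01, endothelial genes 0.01 and epithelial genes -0.05. Among the epithelial genes, Pkp1, a desmosomal plakophilin, read 492, 484, 258 and 298 in the first 4 arrays and 681, 623, 488 and 395 in the last 4, so the column groups overlapped (-0.52 ± 0.10, adjusted p = 0.0975). All 7 tested genes of nasal and respiratory epithelium were higher in the first 4, with a median of 0.23 that was -0.03 without wild type 2 and 0.44 without R26Pax3/Pax3 3. DNA replication and mitosis genes, with 13 of 23 higher in the first 4, had a median of 0.03.

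Among the signalling lists, Shh signalling genes had 7 of 11 higher in the first 4 and a median of 0.11; Ptch1, the Shh receptor and target, read 2019 to 2315 and 1887 to 2002, without overlap (0.19 ± 0.07, adjusted p = 0.465). Wnt signalling genes had a median of 0.04 and BMP and TGF-beta genes -0.01. Of 18 immediate early genes, 13 were higher in the first 4, with a median of 0.07. Nr4a1, an orphan nuclear receptor, read 161 to 188 in the first 4 and 126 to 139 in the last 4, and Ccn1, a matricellular protein, read 241 to 584 and 94.1 to 239.0. Neither had overlapping column groups, and neither passed (adjusted p = 0.255 and 0.267, limma). Ribosomal protein genes, of which 15 of 16 were higher in the last 4, had a median of -0.06, and unfolded protein response genes, of which 13 of 15 were, also -0.06. Of 12 heat shock and protein folding genes, 10 were higher in the last 4, with a median of -0.08, and of 6 interferon response genes 5 were, with a median of -0.13. Within the mutant, however, 10 of the 16 ribosomal protein genes were higher in the first arrays. Of the 12 heat shock genes, 5 were higher in the first arrays within each genotype. For unfolded protein response genes this was 5 of 15 within the mutant and 4 within wild type. For interferon response genes it was 1 of 6 within the mutant and 3 within wild type.

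**Figure D5:**
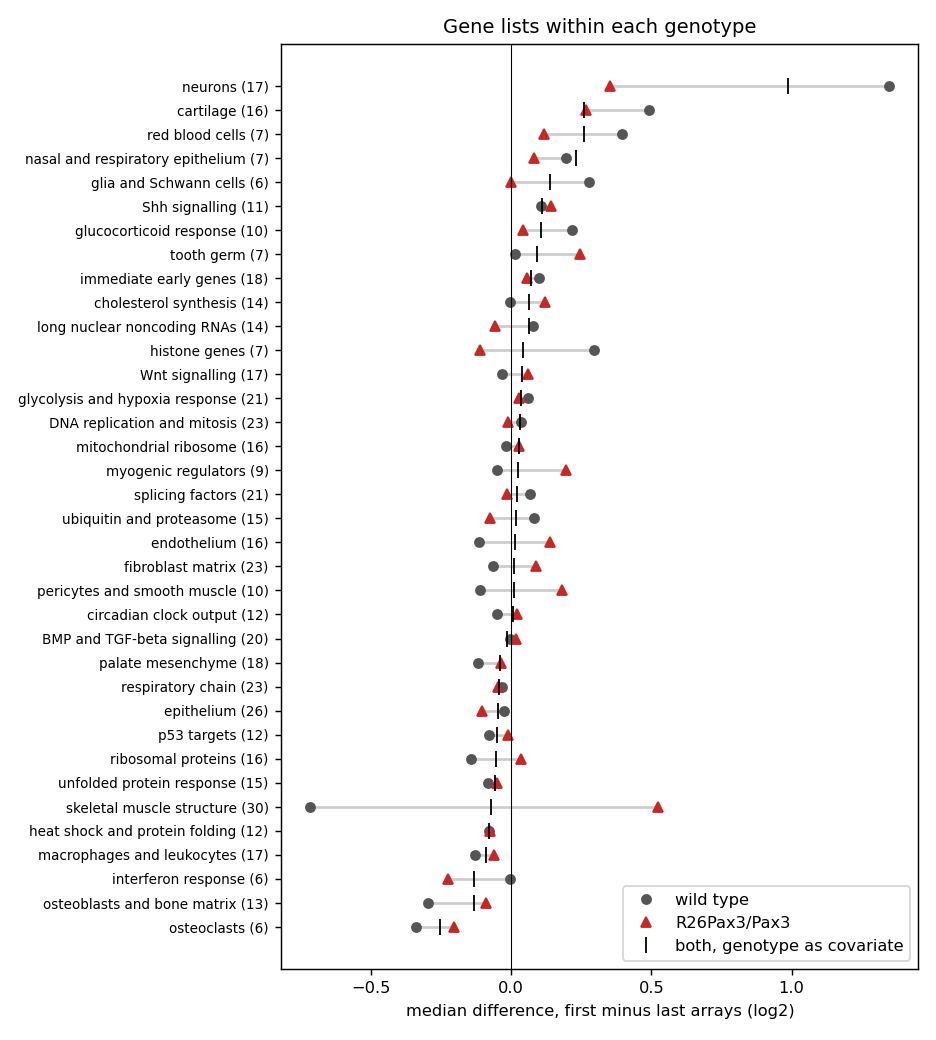
Median difference between first and last arrays on the log2(signal + 16) scale for each list with 5 or more tested genes (number in parentheses), within wild type (circles), within R26Pax3/Pax3 (triangles) and with both genotypes together (bars). Neurons stand apart at 0.99, and the skeletal muscle list has opposite signs in the genotypes, 0.52 and -0.72.

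Technical and sample measures were set beside these values. Across 10 control measures (3' to 5' ratios of Actb and Gapdh, hybridization spikes and labelling controls) the smallest exact two-sided permutation p between column groups was 0.0571, and 0.429 after Benjamini-Hochberg adjustment; 4 against 4 arrays cannot go below 0.0286. The Actb ratio was 1.45 ± 0.03 (SD, n = 4) in the first and 1.43 ± 0.04 in the last 4 arrays. Correlations between arrays on the log2 scale were 0.970 to 0.981 within column groups and 0.968 to 0.980 between them. Sex-linked genes differed between arrays within both column groups: Eif2s3y, a Y-linked translation factor, read 333 to 410 in R26Pax3/Pax3 1 and 7 and wild type 11 and 0.7 to 25.5 in the other arrays. Xist, the X-inactivation RNA, had the opposite order, so 1 of the first 4 and 2 of the last 4 arrays carried the Y-linked transcript, and the part of these measures in the difference between column groups was not tested.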

How the data were processed

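Labelled RNA from 8 palatal shelf samples had been hybridized to Affymetrix arrays. The deposited intensity values are signals per probe set on a linear scale, made by the authors with MAS5 (version not given in the sources used here), per the submitters' processing notes; trimmed means of 150 on every array show that each had been scaled. Control probe sets (64) were left out, and the 40% of the other 45037 probe sets with the lowest mean were removed. Log2(signal + 16) was fitted with limma 3.58.1 (R 4.3.3; lmFit and eBayes with an intensity trend) on column group (first 4 or last 4) and genotype, with 5 residual degrees of freedom, after a check on simulated data; an interaction fit left 4. P-values were adjusted by Benjamini-Hochberg over all 27021 tested probe sets, of which 22778 had 1 symbol, 596 several and 3647 none. No batch was named, so none was fitted.

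The members and lists were chosen with earlier results of these data known. Genes named were the 15 with the largest difference per direction among called probe sets with column groups not overlapping and a mean above 100 in the higher column group, filled up to 12 by p; up to 4 members of each list, by p; Pax3, Gt(ROSA)26Sor and sex-linked genes. Lists used the brightest probe set per gene. Gene order and promoters came from RefSeq (GRCm38.p6). Alternatives covered the pseudocount, filter, normalization, covariates, trend and each array left out. The number of arrays limits the precision.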

Additional observations from a re-analysis of the deposited data

Results flagged for a closer look

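In 68 groups of 4 arrays examined, 7 had 1 array far from the other 3, where chance gives about 1 in 20. Cartilage genes had a mean log2(signal + 16) of 7.51 in R26Pax3/Pax3 3, above the other mutant arrays, and of 7.87 in wild type 6, above the other wild type arrays. Epithelial genes had a mean of 8.41 in R26Pax3/Pax3 3, below the other mutant arrays. Among called genes, Rpgrip1 read 174.6 and Tug1 692.3 in R26Pax3/Pax3 3, the highest of the first 4 arrays, Ngdn read 273 in R26Pax3/Pax3 1, the lowest of the first 4, and Pisd-ps3 (1429452_x_at) read 206.3 in R26Pax3/Pax3 4, the highest of the last 4.

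The difference between column groups differed between genotypes, by the interaction test, in 6 probe sets (mutant minus wild type, log2). These were 3.08 and 3.09 for the 2 Cap1 probe sets, -3.30 for Thg1l, 1.08 for Cnn2, and -2.89 and 2.45 for the 2 unnamed probe sets 1425966_x_at and 1443153_at.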

How the results depend on the processing

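All 40 called probe sets that were tested kept their direction under each of the 15 alternatives, but the counts moved. With no filter 24 were called, 3 higher in the first 4 arrays and 21 in the last 4; without the intensity trend 25 were called and 3 were higher in the first 4; with a pseudocount of 1, 4 were higher in the first 4. Leaving out each array gave 19 to 36 called, 0 to 12 higher in the first 4 and 18 to 29 higher in the last 4; the interaction count ran from 4 to 10 and the genotype count from 4 to 9. The 0 was without wild type 8, the 12 without R26Pax3/Pax3 7, the 10 without R26Pax3/Pax3 4 and the 9 without R26Pax3/Pax3 3, and the genotype count was 7 without wild type 2; the cause was not tested. Calls higher in the first 4, 7 with all arrays, were 3 without R26Pax3/Pax3 1, 4 without R26Pax3/Pax3 3, and 1 without R26Pax3/Pax3 4 or wild type 6. Calls higher in the last 4, 33 with all arrays, were 18 without R26Pax3/Pax3 4 and 20 without R26Pax3/Pax3 1 or wild type 11. Of the 22 called genes, 7 (AI506816, Rpgrip1, Ang, Zfp945, Pisd-ps3, Prrc2c and Ngdn) stayed called in every alternative in which they were tested, whereas Vcan was lost in 12 of 15, Zkscan3 in 11 and Ghitm in 10. Of 614 list medians, 22 moved by more than the residual spread of the list's array mean. With a pseudocount of 64 the neuronal median was 0.50, and without single arrays it was 0.71 to 1.24. No paired analysis was possible because the labels name no litter and the genotypes share no replicate numbers. Without detection calls, differences of dim probe sets have no fold size.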

Other observations

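Afp, the fetal serum protein alpha-fetoprotein and the 1 liver gene that passed the filter, read 84.0 and 189.2 in wild type 6 and 8, 26.2 in R26Pax3/Pax3 3 and 15.6 in R26Pax3/Pax3 4, and 0.2 to 3.9 in the other arrays (1.72 ± 0.51, adjusted p = 0.344, limma). Hand2, a transcription factor of the mandible and of autonomic neurons, read 49.5 to 114.0 in the first 4 arrays, 71.5 and 29.5 in R26Pax3/Pax3 4 and 7, and 18.6 and 4.6 in wild type 2 and 11 (1.05 ± 0.35, adjusted p = 0.406), the same order of arrays as for the neuronal genes.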
